A study of Mus musculus with 6 samples.

Results

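The genes of the mitochondrial protein import machinery were examined in RNA-seq of primary mouse chondrocytes, the matrix-producing cells of cartilage, after knockdown of Pkm2. Members were the rows of the deposited expression table whose gene name starts with Timm or Tomm, together with Hspa9, Hspd1, Hspe1, Grpel1, Grpel2, Pam16, Dnajc19, Chchd4 and Gfer, with pseudogene names left out. This took 36 of 55416 genes. The chondrocytes were grown in DMEM/F12 with fetal bovine serum and received either a control siRNA (siNC, n = 3 libraries, labelled wild type) or a Pkm2 siRNA (siPkm2, n = 3 libraries). The labels give neonatal knee joints as the tissue of all 6 libraries, while the methods of the study describe chondrocytes from adult mice. The titles name all 3 knockdown libraries as siPKM2, but the genotype labels of siPkm2 replicates 2 and 3 read PKM3 and PKM4 knockdown, and they were taken here as siPkm2. The siRNA acted here on cells in culture, outside the native cartilage and joint. The labels do not say whether the 3 libraries of a group were separate cultures.

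Nearly all mitochondrial proteins are made in the cytosol and have to cross or enter the mitochondrial membranes. They enter through the TOM complex of the outer membrane, in which Tomm20, Tomm22 and Tomm70a recognise precursors and Tomm40 forms the pore. Precursors with a cleavable presequence then pass the TIM23 channel and are pulled into the matrix by a motor built around Hspa9 (mortalin, the mitochondrial Hsp70). Carrier proteins are passed by small Tim chaperones to the TIM22 complex, proteins of the intermembrane space are held there by the Chchd4 and Gfer disulfide relay, and imported matrix proteins are folded by the Hspd1 and Hspe1 chaperonin.

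After Pkm2 knockdown the import genes were mostly higher, by small amounts. Of the 36 members, 33 passed the filter on low counts, and the log2 fold change was positive in 29 of the 33, beside 48.1% of all 15269 genes tested. The median log2 fold change of the 33 was 0.30, with a range from -0.32 for Timm21 to 0.92 for Timm8a1, and the median over all genes tested was -0.02. Without siPkm2 replicate 1 the median of the members was 0.18, and over the other libraries left out singly it lay between 0.25 and 0.42. No member passed an adjusted p of 0.05 in edgeR's quasi-likelihood test without a block for the replicate number, which called 0 of all genes (0%). At an unadjusted p under 0.05 the same test held 8 members, beside 17.6% of all genes, and DESeq2 called 1 member, Tomm40, as higher at an adjusted p of 0.00571, beside 2.5% of genes called higher. limma on log2(TPM + 1) called 0 members.

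The replicate numbers paired the libraries, and with the number as a block 13 members passed an adjusted p of 0.05. All 13 were higher in siPkm2, where 12.3% of all genes were called higher, and no member was among the 10.8% called lower. The 13 were Tomm22, Tomm40, Tomm5, Tomm6, Timm23, Timm17a, Grpel1, Timm8a1, Timm22, Timm8b, Timm29, Timm13 and Hspd1. None passed the threshold of the study, which adds a fold change over 2 and was met with the block by 5.83% of all genes. Within the numbered pairs, read in counts scaled to the library total, 28 members were higher in siPkm2 in every pair, beside 30.5% of all genes. Timm21, Dnajc19 and Pam16 were lower in every pair, beside 30.6% of all genes, and Timm17b and Timm10 were mixed. With the block and without pair 1, and with the block and without pair 3, no gene of the whole table passed an adjusted p of 0.05. Without pair 2 there were 18 members past it, 17 higher and 1 lower (Timm21), and these included all 13. In that setting 3009 of all 15185 genes tested were called higher and 2932 lower.

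**Figure D1:**
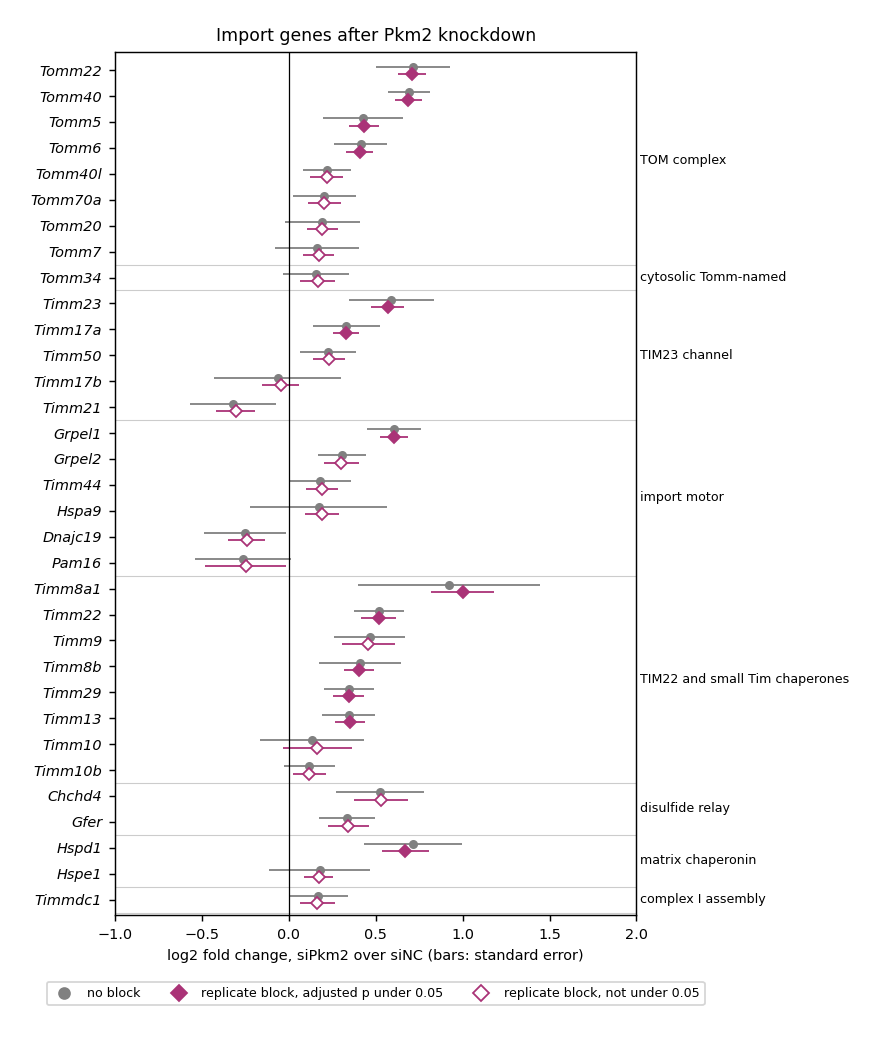
Log2 fold change of siPkm2 over siNC for the 33 tested members, grouped by role. Grey circles are the fit without a block, diamonds the fit with the replicate number as a block (filled where the adjusted p was under 0.05), and bars are standard errors; the 13 filled diamonds all lie to the right of 0, from 0.33 for Timm17a to 1.00 for Timm8a1.

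Some facts of the libraries stand beside these values. The estimated counts summed to between 22317065 and 25691096 per library. Pkm, the targeted gene, was at 2335, 2746 and 1674 CPM (counts scaled to the library total after TMM adjustment) in siNC replicates 1 to 3 and at 336, 541 and 309 CPM in siPkm2, a log2 fold change of -2.51 (adjusted p = 0.0738 by edgeR's quasi-likelihood test, and 0.00932 with the block). All 8 chondrocyte markers were detected. Their summed level was 3752 and 5041 TPM (transcript level per length, scaled to the library total) in replicate 2 of siNC and siPkm2 and 13394 to 16295 TPM in the other 4 libraries. Most of it was Col2a1. Without the block, log2 fold changes were positive for Matn3, Comp, Hapln1, Acan and Col11a2 and negative for Col2a1, Sox9 and Col9a1. Only Matn3 was called, and only with the block (log2 fold change 1.00, adjusted p = 0.762, and 0.0206 with the block). The 5 macrophage markers summed to 99.1 and 58.7 TPM in replicate 2 and to 9.16 to 20.7 TPM elsewhere. Cd68 alone made up most of this, at 92.8 and 53.4 TPM in replicate 2, while the defining markers Ptprc and Adgre1 were at or below 0.1 TPM in every library. The 3 endothelial markers summed to at most 0.67 TPM in any library. The sum of the 3 osteoblast markers was lower in siPkm2 in every pair, at 288, 38.3 and 187 TPM in siNC and 105, 26.8 and 49.6 TPM in siPkm2, mostly Ibsp (log2 fold change -1.70, adjusted p = 0.468, and 0.0278 with the block). The 4 skeletal muscle markers summed to 5.61, 1.48 and 4.45 TPM in siNC and to 1.19, 1.22 and 1.38 TPM in siPkm2, nearly all of it Acta1, with Myod1 and Ckm at 0 to 0.04 TPM. The 4 fibroblast markers summed to 1250 to 2517 TPM in siNC and 884 to 2044 TPM in siPkm2, and they did not move together. Prg4, which the study counts among extracellular matrix genes, had a log2 fold change of 2.29 (adjusted p = 0.122, and 0.0271 with the block). Col1a1 and Thy1 had negative values of -0.59 and -0.60 (adjusted p = 0.541 and 0.738, and 0.111 and 0.108 with the block). Col3a1 was at 0.28 (adjusted p = 0.772, and 0.242 with the block). The 8 interferon response genes summed to 27.2, 1958 and 54.9 TPM in siNC replicates 1 to 3 and to 1265, 3380 and 878 TPM in siPkm2, higher in siPkm2 in every pair. Only Mx1 and Ifit1 among them were called, and only with the block. Mx1 had a log2 fold change of 2.04 (adjusted p = 0.581, and 0.0161 with the block) and Ifit1 of 1.98 (adjusted p = 0.547, and 0.0445 with the block). The part of these differences in the import gene values was not tested, and in bulk RNA fewer cells of a type and less RNA per cell cannot be told apart. Estimated counts that are not whole, which shared reads can give, were in all 6 libraries for Tomm6, Tomm40, Timm23, Grpel1, Timm29 and Timm8a1 among the 13, and their part in the values was not tested. Replicate 2 was the lowest library of both groups in 18 of the 33 members, beside 28.5% of all genes tested, and among the 13 members called with the block this held for 9.

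Levels of different genes were compared in TPM, which divides by transcript length. In siNC the most abundant members were Tomm20 at 321 ± 109 TPM (SD, n = 3), Hspe1 at 277 ± 53.3 TPM and Hspa9 at 230 ± 80.6 TPM. Tomm6, Timm8b, Timm23 and Hspd1 followed at 168, 167, 142 and 103 TPM, so that 7 members lay above 100 TPM. At the lower end were Timm8a1 at 8.67 ± 4.90 TPM, Grpel2 at 8.34 ± 0.82 TPM and Chchd4 at 4.45 ± 0.72 TPM (SD, n = 3 each). Neighbours in this order mostly could not be told apart, since the siNC libraries overlapped in 28 of 32 neighbouring pairs. The exceptions were Timm23 above Hspd1, Timm10b above Tomm22, Timmdc1 above Pam16, and Grpel2 above Chchd4. In siPkm2 the same 3 genes led the order, with Tomm20 at 318 ± 38.2 TPM, Hspe1 at 312 ± 80.9 TPM and Hspa9 at 254 ± 81.2 TPM (SD, n = 3 each).

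**Figure D2:**
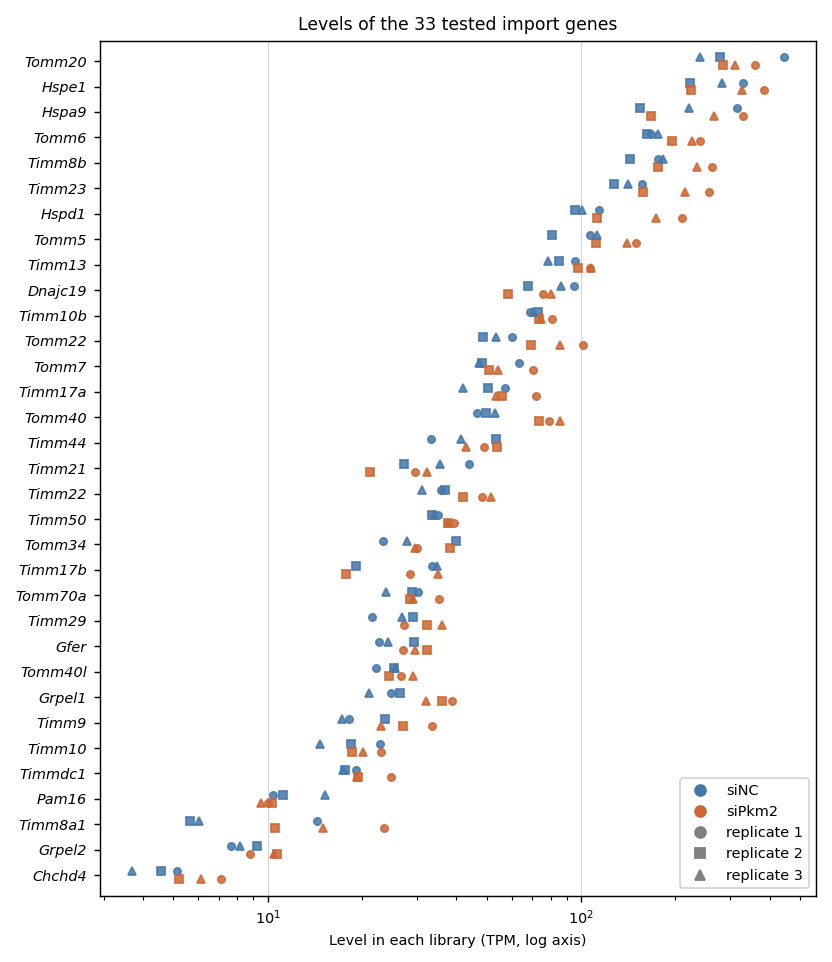
Level of each of the 33 tested members in each library, in TPM on a log axis, ordered by the siNC mean. Blue points are siNC, orange points siPkm2, and marker shapes give the replicate number; the members span from 4.45 TPM for Chchd4 to 321 TPM for Tomm20 in siNC, and most orange points lie to the right of the blue points of the same shape.

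In the TOM complex all 8 tested members had positive log2 fold changes and were higher in CPM in every pair. With the block 4 of them were called higher, beside 12.3% of all genes. In TPM, Tomm20 was lower in siPkm2 in pair 1 (444 TPM in siNC and 360 TPM in siPkm2). Tomm70a (28.9 and 28.4 TPM) and Tomm40l (25.3 and 24.4 TPM) were lower in siPkm2 in pair 2. The summed level of the complex was 941, 723 and 730 TPM in siNC replicates 1 to 3 and 1063, 838 and 961 TPM in siPkm2, higher in each pair although the groups overlapped. Tomm22 (ENSMUSG00000022427), the central receptor that also organises the complex, was at 52.3, 37.4 and 42.3 CPM in siNC and at 89.6, 57.2 and 70.3 CPM in siPkm2. Every siPkm2 library lay above every siNC library, and the log2 fold change was 0.72 (SE, standard error, 0.21, adjusted p = 0.179, and 0.0122 with the block). Tomm40 (ENSMUSG00000002984), the pore itself, was at 44.9, 41.6 and 44.3 CPM in siNC and at 73.1, 63.3 and 74.9 CPM in siPkm2. The groups were far apart against the spread within them, with a log2 fold change of 0.69 (SE 0.12, adjusted p = 0.1, and 0.0122 with the block). Of the spread in its log2 CPM, 94.4% lay between the groups and 4.77% between replicate numbers.

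Of the 3 small subunits of the complex, Tomm5 and Tomm6 were called with the block and Tomm7 was not. Tomm6, which helps to hold the complex together, was at 58.7, 48.3 and 52.9 CPM in siNC and at 80.0, 61.0 and 72 CPM in siPkm2, with no overlap. Its log2 fold change was 0.41 (SE 0.15, adjusted p = 0.235, and 0.0234 with the block). Exons of Tomm6 overlap those of Gm21981 on the same strand and of the antisense RNA Tomm6os on the other, and its counts were fractional in all 6 libraries, so reads may have been shared. Tomm5 was at 30.2, 19.3 and 26.5 CPM in siNC and at 39.9, 27.2 and 35.1 CPM in siPkm2. The groups overlapped but each pair differed by a similar amount, with a log2 fold change of 0.43 (SE 0.23, adjusted p = 0.390, and 0.0263 with the block). Tomm7 had a log2 fold change of 0.16 (adjusted p = 0.786, and 0.211 with the block), and without siPkm2 replicate 1 it was -0.030.

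The receptors other than Tomm22 were not called. Tomm20, the presequence receptor and the most abundant member, was at 221, 156 and 162 CPM in siNC and at 245, 168 and 203 CPM in siPkm2, with overlapping groups. Its log2 fold change was 0.19 (SE 0.21, adjusted p = 0.701, and 0.161 with the block), and its mean TPM was nearly equal in the groups, as given above. Tomm70a, the receptor for carrier precursors, was at 120, 101 and 86.6 CPM in siNC and at 138, 104 and 111 CPM in siPkm2. The groups overlapped here too, with a log2 fold change of 0.20 (SE 0.18, adjusted p = 0.615, and 0.160 with the block). Tomm40l, a paralog of the pore, had a log2 fold change of 0.22 (adjusted p = 0.468, and 0.148 with the block) although its groups did not overlap. Tomm20l, a paralog of Tomm20, had at most 2 counts in any library and was not tested. Tomm34, a cytosolic cochaperone that carries the Tomm name, had a log2 fold change of 0.15 (adjusted p = 0.733, and 0.264 with the block).

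**Figure D3:**
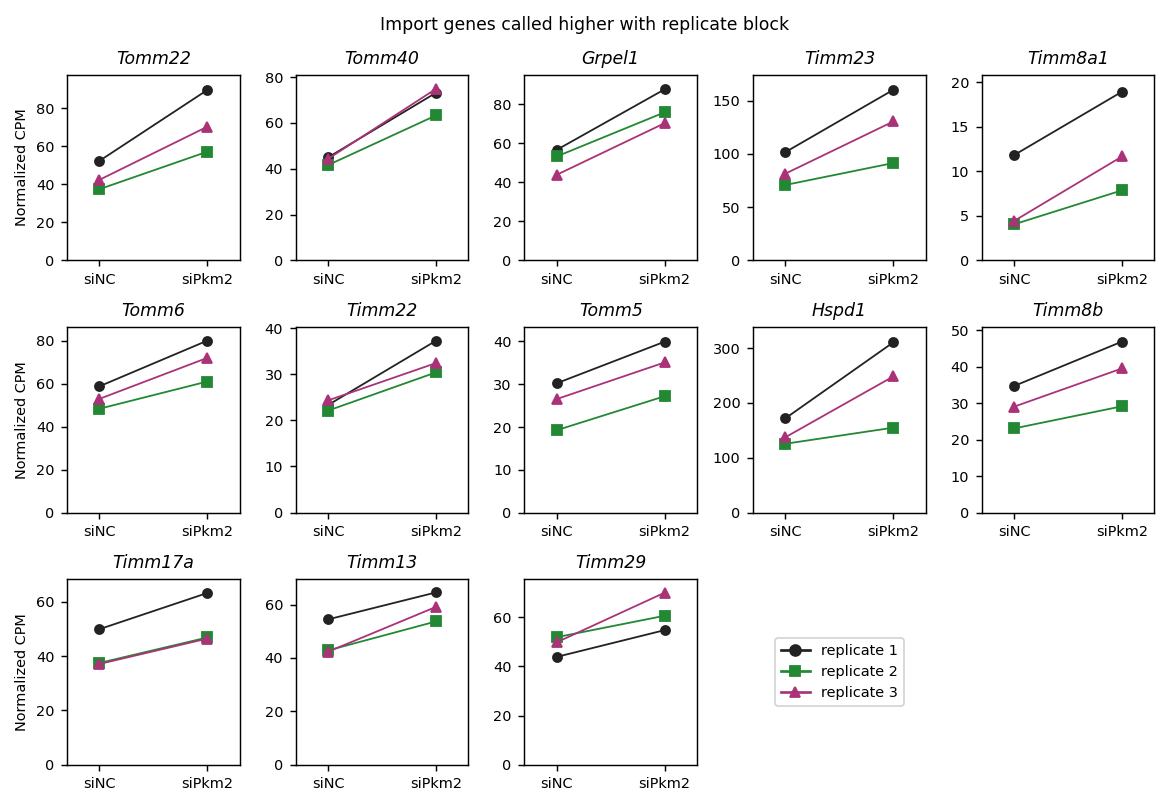
Normalized CPM of the 13 members called with the replicate block, in siNC and siPkm2. Each line joins the libraries of 1 replicate number, and every vertical axis starts at 0; all lines rise from siNC to siPkm2, and for Tomm22 the siPkm2 libraries lie between 57.2 and 89.6 CPM against 37.4 to 52.3 CPM in siNC.

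The TIM23 channel was divided. Of its 5 members 2 were called higher with the block, beside 12.3% of all genes. Of the others, 1 had a positive value and was not called, and 2 had negative values. Timm23 (ENSMUSG00000013701), the channel subunit, was at 102, 70.8 and 81.5 CPM in siNC and at 160, 91.4 and 130 CPM in siPkm2. Only siPkm2 replicate 2 lay within the siNC range, and the log2 fold change was 0.59 (SE 0.24, adjusted p = 0.283, and 0.0189 with the block). Timm17a, its channel partner, was at 49.9, 37.5 and 37.1 CPM in siNC and at 63.2, 46.8 and 46.4 CPM in siPkm2. The groups overlapped, but the differences within pairs were nearly equal at 0.34, 0.32 and 0.32 on the log2 scale. The fitted log2 fold change was 0.33 (SE 0.19, adjusted p = 0.431, and 0.0362 with the block). Timm17b, the X-linked paralog of Timm17a, was at 31.4, 15 and 30 CPM in siNC and at 26.8, 15.6 and 30.7 CPM in siPkm2, and 97.7% of the spread in its log2 CPM lay between replicate numbers.

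Timm50, the receptor that hands precursors from TOM to TIM23, was at 30.3, 23.0 and 25.2 CPM in siNC and at 33.4, 29.4 and 29.0 CPM in siPkm2. The groups overlapped through siNC replicate 1, with a log2 fold change of 0.22 (SE 0.16, adjusted p = 0.519, and 0.129 with the block). Timm21, which links the channel to the TOM complex and the respiratory chain, had the lowest log2 fold change of all members, at -0.32 (SE 0.25, adjusted p = 0.552, and 0.0985 with the block). It was below its siNC partner in every pair and was called lower with the block only when pair 2 was left out.

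Of the import motor, 1 of 6 members was called higher with the block, beside 12.3% of all genes. Grpel1 (ENSMUSG00000029198), the nucleotide exchange factor of mortalin, was at 56.7, 53.3 and 43.9 CPM in siNC and at 87.7, 75.9 and 70.3 CPM in siPkm2. All siPkm2 libraries lay above all siNC libraries, and the log2 fold change was 0.60 (SE 0.15, adjusted p = 0.145, and 0.0138 with the block). Its paralog Grpel2 did not overlap between groups either, with a log2 fold change of 0.30 (adjusted p = 0.322, and 0.0807 with the block). Hspa9, the motor chaperone itself, was at 608, 261 and 388 CPM in siNC and at 627, 298 and 491 CPM in siPkm2. The replicate number accounted for 94.5% of the spread in its log2 CPM and the group for 3.92%. Its log2 fold change was 0.17 (SE 0.39, adjusted p = 0.869, and 0.202 with the block).

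The remaining motor subunits were not called. Timm44, which tethers the motor to the channel, had a log2 fold change of 0.18 (adjusted p = 0.653, and 0.180 with the block). The J-proteins of the motor had negative values in every pair. Dnajc19 (Tim14), which stimulates mortalin, had a log2 fold change of -0.25 (adjusted p = 0.640, and 0.151 with the block), and Pam16, the J-like protein that regulates it, of -0.26 (adjusted p = 0.676, and 0.466 with the block). Pam16 was at 2.84, 2.99 and 4.03 CPM in siNC and at 2.70, 2.76 and 2.74 CPM in siPkm2, the only member whose siPkm2 libraries all lay below the siNC libraries, where 12.3% of all genes did so. Non-overlap in the other direction held for 10 members, beside 12% of all genes. These were Tomm6, Tomm22, Tomm40, Tomm40l, Grpel1, Grpel2, Timm22, Timm29, Timm9 and Gfer.

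Of the TIM22 complex and the small Tim chaperones, 5 of 8 tested members were called higher with the block. This stood beside 4 of 8 in the TOM complex and 12.3% of all genes. Their summed level was 452, 415 and 428 TPM in siNC and 605, 477 and 562 TPM in siPkm2, and all siPkm2 sums lay above all siNC sums. Timm22 (ENSMUSG00000020843), the channel for carrier proteins, was at 23.3, 22.1 and 24.3 CPM in siNC and at 37.3, 30.4 and 32.4 CPM in siPkm2. The groups did not overlap, with a log2 fold change of 0.52 (SE 0.14, adjusted p = 0.162, and 0.0239 with the block). Timm29, a metazoan subunit of the same complex, was at 43.9, 51.9 and 49.8 CPM in siNC and at 54.8, 60.6 and 70.0 CPM in siPkm2. Its groups did not overlap either, with a log2 fold change of 0.35 (SE 0.14, adjusted p = 0.278, and 0.0452 with the block).

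Timm8a1, the mouse counterpart of the deafness-dystonia gene TIMM8A, had the largest log2 fold change of the members at a low level. It was at 11.8, 4.05 and 4.42 CPM in siNC and at 18.9, 7.86 and 11.7 CPM in siPkm2. siNC replicate 1 stood above 2 of the siPkm2 libraries, and the log2 fold change was 0.92 (SE 0.52, adjusted p = 0.417). Leaving out siNC replicate 1 moved the log2 fold change to 1.60 (adjusted p = 0.341), and leaving out siPkm2 replicate 1 moved it to 0.52 (adjusted p = 0.785). With the block and all libraries it was 1.00 (SE 0.18, adjusted p = 0.0220), just under the fold of 2. Timm8b, the more abundant related gene, was at 34.8, 23.1 and 29.1 CPM in siNC and at 46.9, 29.2 and 39.6 CPM in siPkm2. The groups overlapped, with a log2 fold change of 0.41 (SE 0.24, adjusted p = 0.420, and 0.0286 with the block). Timm13, the partner of the Timm8 proteins in the chaperone ring, was at 54.5, 42.8 and 42.3 CPM in siNC and at 64.6, 53.7 and 59.1 CPM in siPkm2. Only siPkm2 replicate 2 lay within the siNC range, with a log2 fold change of 0.35 (SE 0.15, adjusted p = 0.308, and 0.0406 with the block).

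The other chaperone ring, built of Timm9 and Timm10 with Timm10b at the TIM22 complex, was not called. Timm9 was at 9.01, 10.5 and 8.54 CPM in siNC and at 15.2, 12.3 and 11.1 CPM in siPkm2, without overlap, with a log2 fold change of 0.46 (adjusted p = 0.302, and 0.0843 with the block). Timm10 and Timm10b had log2 fold changes of 0.13 and 0.12 (adjusted p = 0.865 and 0.741, and 0.571 and 0.396 with the block). Timm8a2 had 0 counts in all 6 libraries, where a count of 3, the upper limit that a count of 0 allows, corresponds to 0.117 to 0.140 CPM. Such limits cover counting error only.

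The disulfide relay and the chaperonin each held a pair of genes. Chchd4, the oxidoreductase that traps proteins in the intermembrane space, was at 11.3, 8.70 and 7.14 CPM in siNC and at 15.6, 10.6 and 12.8 CPM in siPkm2. The groups overlapped through siNC replicate 1, with a log2 fold change of 0.52 (SE 0.25, adjusted p = 0.341, and 0.0626 with the block). Gfer, the sulfhydryl oxidase that reoxidises Chchd4, had a log2 fold change of 0.34 without overlap of the groups (adjusted p = 0.340, and 0.0847 with the block). Hspd1 (Hsp60, ENSMUSG00000025980), the chaperonin barrel, was at 172, 126 and 137 CPM in siNC and at 311, 155 and 248 CPM in siPkm2. siPkm2 replicate 2 lay within the siNC range, and the log2 differences within pairs were 0.85, 0.30 and 0.85. The fitted log2 fold change was 0.71 (SE 0.28, adjusted p = 0.261), and with the block 0.67 (SE 0.14, adjusted p = 0.0268).

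Hspe1 (Hsp10), the lid of the same chaperonin, was at 123, 70.9 and 90.9 CPM in siNC and at 137, 74.4 and 111 CPM in siPkm2. The groups overlapped, and the log2 fold change was 0.18 (SE 0.29, adjusted p = 0.807, and 0.186 with the block). Timmdc1, a complex I assembly factor related to the Tim17 family, had a log2 fold change of 0.17 (adjusted p = 0.661, and 0.273 with the block). Tomm6os, the antisense RNA, had at most 12 counts in any library and was not tested.

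Related genes were compared by their TPM ratio within each library, which the scaling of the library does not touch. Of 7 ratios, those of Tomm40 to Tomm40l and of Hspd1 to Hspe1 did not overlap between groups. Tomm40 was 2.09, 1.96 and 2.09 times the level of Tomm40l in siNC replicates 1 to 3 and 2.96, 3 and 2.94 times in siPkm2. The log2 ratio was higher by 0.54 in siPkm2 (p = 0.1 by an exact two-sided permutation test, the smallest that 3 against 3 libraries allow, and 0.35 after Benjamini-Hochberg adjustment over the 7). Hspd1 was 0.348, 0.430 and 0.357 times the level of Hspe1 in siNC and 0.547, 0.501 and 0.533 times in siPkm2. Here the log2 ratio was higher by 0.48 (p = 0.1 by the same exact test, adjusted 0.35). The 2 genes lie head to head with overlapping first exons on opposite strands, and whether the counting used strand is not given in the sources used here, so reads from the overlap may count for either gene.

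The other ratios overlapped between the groups. The log2 ratio of Grpel1 to Grpel2 was higher by 0.31 and that of Timm17a to Timm17b by 0.38, each higher in every pair (exact permutation p = 0.2 and 0.5). The Timm8a1 to Timm8b ratio was higher by 0.56 on the log2 scale, also in every pair (exact permutation p = 0.3). The Timm10 to Timm10b ratio differed by 0.05 and had no common direction over the pairs (exact permutation p = 0.9). The ratio of Tomm20 to Tomm20l rests on the near absence of Tomm20l and was not read.

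**Figure D4:**
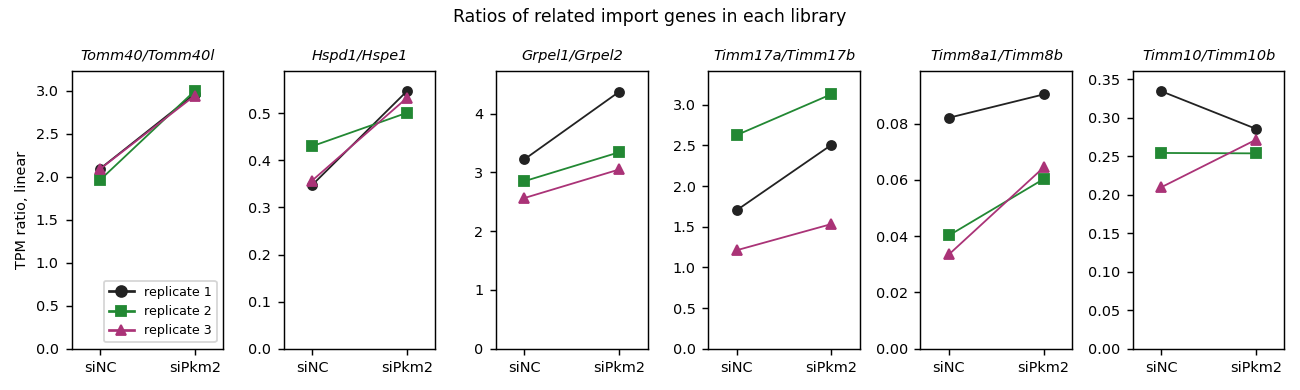
TPM ratio of related import genes in each library, on linear axes that start at 0; lines join the libraries of 1 replicate number. The Tomm40 to Tomm40l ratio goes from 1.96 to 2.09 in siNC up to 2.94 to 3 in siPkm2, and the Hspd1 to Hspe1 ratio from 0.348 to 0.430 up to 0.501 to 0.547.

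Promoter windows from RefSeq (GRCm38.p6), 250 bases before to 50 after the start, were at hand for 31 of the 36 members. The ETS core CCGGAAG, on either strand, was in the window of 13 of the 31, and in 9.93% of the 27025 genes with a window. It was in 6 of the 13 members called with the block and in 6 of the 15 other tested members with a window. The CCAAT box was in 10 of the 31 members, and in 41.1% of all genes. The NRF1 core GCATGCGC was in 2 of the 31 members, Grpel1 and Timm13, and in 3.05% of all genes. A heat shock element, searched as the unit GAA and its reverse complement in turn, 3 units with 2 bases between them and on both strands, was in Hspd1, Hspe1 and Timm9 and in 0.662% of all genes. The shares over all genes with a window include genes that were not tested here, and shares over the tested genes alone were not computed. A match is a description of letters and not of binding.

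The stretches shown are from promoters of members described above, to let the matches be read in place, 5′ to 3′ on the strand of the gene (of Hspe1 for the shared promoter). Capitals mark the ETS core in Tomm22 and Timm23, the CCAAT box in Tomm40, and overlapping matches to the heat shock element and the ETS core between Hspd1 and Hspe1. They lie at chr15:79670761-79670860 (plus strand, Tomm22), chr14:32201899-32201998 (minus strand, Timm23), chr7:19715439-19715538 (minus strand, Tomm40) and chr1:55088054-55088082 (plus strand, Hspd1 and Hspe1). The first 3 end just before the exons that GENCODE M21 gives the gene, and the last lies 94 to 66 bases before the start of Hspe1, where M21 places an alternative first exon of Hspd1.
Tomm22: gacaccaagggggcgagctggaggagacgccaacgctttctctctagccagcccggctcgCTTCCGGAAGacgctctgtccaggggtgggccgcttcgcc
Timm23: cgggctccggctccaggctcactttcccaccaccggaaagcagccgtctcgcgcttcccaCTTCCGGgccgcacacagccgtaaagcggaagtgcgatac
Tomm40: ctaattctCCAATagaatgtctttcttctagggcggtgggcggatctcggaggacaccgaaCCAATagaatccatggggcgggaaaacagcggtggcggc
Hspd1-Hspe1: gtccgTTCTAGAACCTTCCGGAAGgcccc
The shared stretch of Hspd1 and Hspe1 holds matches for both genes, whose log2 fold changes with the block were 0.67 and 0.17. Whether the matches bear on these values was not tested.

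Other genes of protein import, which the name rule leaves out, were read beside the members. Of 21 such genes, all tested, none was called without the block and 3 had an unadjusted p under 0.05, 12 had a positive log2 fold change, and the median was 0.04. DESeq2 called 1, Dnaja1, as higher (adjusted p = 0.0245). With the block 2 were called higher and 2 lower, beside 12.3% and 10.8% of all genes. Dnaja1, a cytosolic J-protein that keeps precursors unfolded, had a log2 fold change of 0.63 (adjusted p = 0.140, and 0.0175 with the block). Pmpcb, the catalytic subunit of the mitochondrial processing peptidase, had one of 0.30 (adjusted p = 0.293, and 0.0411 with the block). Pmpcb is named here because it was called, after its values were seen. Oxa1l, the insertase of the inner membrane, had a log2 fold change of -0.50 (adjusted p = 0.145, and 0.0185 with the block), and Samm50, the core of the outer membrane sorting machinery, of -0.38 (adjusted p = 0.295, and 0.0280 with the block).

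Genes known to respond together with the matrix chaperones to mitochondrial protein stress were read beside them. The 10 genes had 11 rows in the table, since Ddit3 is listed under 2 identifiers, and all rows were tested. None was called with or without the block by edgeR, nor by DESeq2, and none had an unadjusted p under 0.05 without it. Of the rows, 8 had a positive log2 fold change, and the median was 0.09. The smallest p with the block was that of Ddit3 (ENSMUSG00000025408), the CHOP transcription factor, with a log2 fold change of 0.26 (adjusted p = 0.866, and 0.0845 with the block). Clpp, a protease of the matrix, had a log2 fold change of 0.21 (adjusted p = 0.582, and 0.138 with the block), and Atf5, a transcription factor of the mitochondrial stress response, of -0.59 (adjusted p = 0.716, and 0.142 with the block).

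The median weight of the replicate number was alike in the import genes and in the table as a whole, while other measures differed. The median share of the spread in log2 CPM between replicate numbers was 56.8% in the 33 members and 56.6% over all genes tested, and the median share between the groups was 40.0% in the members and 24.4% over all genes. The replicate share was larger than the group share in 18 members (54.5%), beside 65.4% of all genes, and in 4 of the 13 members called with the block. Median log2 differences of the members within pairs 1, 2 and 3 were 0.25, 0.22 and 0.36, with 28, 30 and 30 of the 33 higher in siPkm2. Over all genes tested the medians were -0.015, 0.005 and -0.004, with 7455, 7711 and 7580 of 15269 higher.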

How the data were processed

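RNA from siNC and siPkm2 chondrocytes was sequenced (3 libraries each, 22317065 to 25691096 estimated counts). For each gene the authors deposited estimated counts, without normalization, and TPM, scaled within each library. Their own comparison (fold changes, p-values and significance marks) was not used. The submitters' processing notes list edgeR and mm9 with no role, and the aligner, counting tool and annotation are not given in the sources used here. Value columns with no sample numbered 0.

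Rounding the estimated counts gave whole numbers, and the tests ran in edgeR 4.0.16 under R 4.3.3 (filterByExpr on the group, TMM factors, quasi-likelihood test, Benjamini-Hochberg adjustment over 15269 genes), limma 3.58.1 and DESeq2 1.42.0. CPM are scaled by the TMM factors. Within groups, 52.7% to 73.4% of genes differed between libraries by more than sampling noise, so no library was a duplicate. P-values measure the spread between these libraries, which may be technical. Same-numbered libraries deviated together (correlations across genes 0.72, 0.79 and 0.72, each over 0.1), so the replicate numbers, which come from the titles, pair them, and the value with the replicate block is given where it changes a call or sets a result. TPM ratios used a pseudocount of 0.1 and log2 CPM shares one of 0.5. Gene positions are from GENCODE M21 (GRCm38), matched by identifier, and promoters from RefSeq.

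The members and lists were chosen with earlier results of these data known. Every member is named, with full statistics for those called and for fixed core members, and of the other lists the 3 with the smallest p with the block. The settings varied were the size factors (RLE, upper quartile), the tool (DESeq2, limma on log2(TPM + 1)), the filter (none, or a minimum of 10 counts in every library), each library or pair left out, and the replicate block. The block with RLE or upper-quartile factors was added after seeing the data.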

Additional observations from a re-analysis of the deposited data

How the results depend on the processing

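The count of members past an adjusted p of 0.05 was 0 with RLE or upper-quartile factors, limma, no filter or a minimum of 10 counts, and when any single library was left out. It was 1 with DESeq2, 13 with the replicate block, 18 with the block without pair 2, 13 with the block and RLE factors and 10 with the block and upper-quartile factors, the last 2 settings chosen after seeing the data. With the block and without pair 1 or pair 3 it was 0, with 2 pairs left and 0 genes called in the whole table. The count with a fold over 2 was 1 with the block and RLE factors, where Timm8a1 passed the fold. Of the other import genes, 1 was called with DESeq2, 4 with the block under TMM, RLE and upper-quartile factors alike, and 7 with the block without pair 2. Of the mitochondrial stress rows, 2 were called with the block without pair 2. Over all genes, the block without pair 2 called 3009 higher and 2932 lower of 15185. The block called 1897 higher and 1659 lower of 15269 with RLE factors, and 1478 higher and 2061 lower with upper-quartile factors. Upper-quartile factors moved the median of all genes to -0.09 (-0.08 with the block) and that of the members to 0.24. The number of members with a positive log2 fold change was 26 to 30 over all settings, and their median 0.18 to 0.42.

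The log2 fold change of Pkm was -2.50 with DESeq2, -2.53 with the block, -2.63 with the block without pair 2, and -2.52 and -2.59 with the block and RLE or upper-quartile factors, each past the threshold. Over single libraries left out it lay between -2.80 and -2.34, and it passed without siNC replicate 2. The direction turned for 5 members that were not called. Leaving out single libraries gave -0.33 to 0.18 for Timm17b, -0.094 to 0.547 for Hspa9, -0.044 to 0.418 for Timm10, -0.030 to 0.404 for Tomm7 and -0.042 to 0.420 for Hspe1. With the block, Timm17b was at 0.046 without pair 1 and Timm10 at -0.011 without pair 3. The difference between the groups in the log2 ratio of Timm10 to Timm10b, siPkm2 minus siNC, lay between -0.11 and 0.23. The cause of these changes was not tested. The block changed no call of a named gene other than those of the 13 members, the 4 other import genes and Pkm, and among the markers those of Matn3, Ibsp, Prg4, Mx1 and Ifit1. Depth limits most the values of Pam16 and Timm10, which were under 10 CPM in every library, and Tomm20l, Timm8a2 and Tomm6os had too few counts to test.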
